A study of Mus musculus with 41 samples.

Results

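Endometriosis lesions grown from ILC2-deficient uterine tissue were compared with lesions grown from ILC2-competent uterine tissue, where every recipient mouse was ILC2-competent. The comparison holds 8 of the 41 bulk RNA-seq libraries of the series, assigned to groups by their labels. The first 4 are lesions from Nmur1iCre-eGFPId2fl/fl fragments placed in Nmur1iCre-eGFP recipients, called deficient fragments in Cre-control hosts here. The other 4 are Nmur1iCre-eGFP lesions that were not moved across genotypes, called Cre controls. All donors and recipients of these 8 lesions thus carried the Nmur1iCre-eGFP allele, and only the deficient fragments also carried floxed Id2. The labels give the genotype of the fragment, and recipients of lesions that were not transferred are assumed to share it. Lesions were made by fixing 4 mm uterine punches to the inner peritoneal wall of mice aged 12 to 16 weeks. From day 7, every mouse here received 3 intraperitoneal injections of 1 µg IL-33, spread over 6 days, and none received ILC2s. The labels do not say whether the 4 libraries of a group came from 4 animals, so p-values measure only the spread between libraries. That spread was estimated in a model of all 41 libraries of the series. The Cre controls were not transferred and the deficient fragments were, so transfer, the numbering run of the libraries and fragment genotype cannot be told apart. Levels are also given for 2 further groups of 4 given IL-33 in the same way. These are own-host deficient lesions, Nmur1iCre-eGFPId2fl/fl and not transferred, and Cre fragments in deficient hosts, which are Nmur1iCre-eGFP fragments in Nmur1iCre-eGFPId2fl/fl recipients.

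Group 2 innate lymphoid cells (ILC2s) are tissue lymphocytes that carry the IL-33 receptor and answer IL-33 with IL-5 and IL-13. IL-5 acts on eosinophils, and IL-13 acts on macrophages and stroma, where genes such as Chil3, Retnla and Arg1 mark the type 2 response. In the Nmur1iCre-eGFP line, Cre is made under Nmur1, the neuromedin U receptor, which in mouse lymphocytes is largely confined to ILC2s. Floxed Id2 is lost where Cre is made, and Id2, an inhibitor of E-protein transcription factors, is needed for innate lymphoid cells to form. A uterine fragment carries its own resident cells into a host whose circulating and peritoneal cells can enter the lesion. The levels below are from whole lesions, in which fewer cells of a type and less RNA per cell cannot be told apart. Levels are CPM, reads of a gene per 1000000 reads after scaling by the trimmed mean of M values, are not divided by gene length, and are not compared between genes.

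The sequences in this paragraph belong to the only transcript called between the groups, Gm7993, and to the next by p, Gm6969. They are shown because both transcripts are pseudogenes that closely resemble an expressed gene. Gm7993 is a processed pseudogene on chromosome 5 that shares 51.8% of its 31-base words with Odc1, which encodes ornithine decarboxylase. Without gaps, 1260 of the 1384 bases of Gm7993 equalled Odc1. The window below is coding exon 5 of Odc1 beside its counterpart in Gm7993, each on the plus strand of GRCm38, with the 6 differing bases of the 120 in capitals. The Gm7993 window is chr5:95974517-95974636 and the Odc1 window is chr12:17547950-17548069.
Gm7993: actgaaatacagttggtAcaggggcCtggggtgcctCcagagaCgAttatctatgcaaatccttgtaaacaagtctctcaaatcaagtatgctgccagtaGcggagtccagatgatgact
Odc1: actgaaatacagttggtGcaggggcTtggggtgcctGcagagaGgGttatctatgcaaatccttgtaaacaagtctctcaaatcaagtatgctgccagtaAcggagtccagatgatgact
Gm6969, a processed pseudogene on chromosome 12, shares 78.2% of its 31-base words with Cox7a2l, a mitochondrial respiratory supercomplex factor encoded on chromosome 17. The Gm6969 window below, chr12:24638819-24638938 on the minus strand of GRCm38, is identical to 120 bases of coding exon 2 of Cox7a2l, so no base is in capitals. Reads from such stretches can be assigned to either copy, and the counts of both pairs are uncertain for that reason.
Gm6969: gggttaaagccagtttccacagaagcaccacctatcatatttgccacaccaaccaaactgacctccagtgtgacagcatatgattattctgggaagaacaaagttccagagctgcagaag

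The libraries held 37.9 to 41.2 M counted reads in deficient fragments in Cre-control hosts and 31.8 to 44.1 M in Cre controls. Cre-control replicate 3 stood apart, with 7.07% of its counts in 16 liver genes, against 0.0522% to 0.0588% in the other 3 Cre controls and 0.0337% to 0.0982% in the deficient fragments. Deficient-fragment replicate 1 stood apart in lymphocyte genes, with 0.0187% of its counts in 15 T cell genes, against at most 0.00471% in the other 3 deficient fragments and at most 0.00407% in the Cre controls. The 16 skeletal muscle genes took 0.668% to 11.1% of counts in deficient fragments and 0.013% to 8.4% in Cre controls.

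Few genes separated the groups. Of 21249 genes tested with edgeR's quasi-likelihood test, 1 was called at a Benjamini-Hochberg adjusted p under 0.05, or 0.00471%, and it was higher in deficient fragments. At an unadjusted p under 0.05 there were 1487 genes (7%), 513 higher (2.41%) and 974 lower (4.58%). Without Cre-control replicate 3 there were 406 such genes, and without both libraries that stood apart 304. Of the 16 liver genes, 15 were among the 1487, and 0 had such a p without Cre-control replicate 3. DESeq2 called 11 genes, 5 higher and 6 lower, and limma voom called 0, with 753 at an unadjusted p under 0.05. The 5 that DESeq2 called higher were Gm7993, Gm6969, Gm48643, Trat1 and Apol7c. The 6 that it called lower were Adh1, Gm609, Ighv6-3, Inmt, Slc17a1 and Timd2. Without deficient-fragment replicate 1, edgeR called 3 genes (Gm7993, Gm6969 and Gm48643), and without deficient-fragment replicate 2 or Cre-control replicate 2 or 3 it called 2. All 4 deficient fragments lay above all 4 Cre controls for 357 genes (1.68%) and below them for 295 (1.39%), or 652 in all (3.07%). The 95% interval of the fold change lay inside a 2-fold change in either direction for 13931 genes (65.6%), and the median standard error was 0.26 on the log2 scale. For the other genes a change past 2-fold lay within the interval. Of all genes tested, 10513 (49.5%) had a positive log2 fold change, the background for the sign counts of the gene lists below. Members of a list can vary together between libraries, so a count of signs is not a test.

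The levels of the ILC2 cytokines overlapped between lesions of either fragment genotype. Il5, which sustains eosinophils, had 0.929, 1.81, 0.535 and 1.21 CPM in deficient fragments in Cre-control hosts, against 1.33, 1.78, 0.945 and 0.788 CPM in Cre controls. The 4 values of each group overlapped through most of their range. The log2 fold change of Il5 was -0.11 ± 0.44 (SE; 95% interval -1.01 to 0.79; adjusted p = 0.978). Il13, which drives alternative macrophage activation and mucus production, had 1.45, 1.99, 1.96 and 1.81 CPM in deficient fragments, against 2.21, 3.56, 2.71 and 1.55 CPM in Cre controls. Cre-control replicates 1, 2 and 3 lay above every deficient fragment, and the lowest Cre control lay among them. The log2 fold change of Il13 was -0.47 ± 0.48 (95% interval -1.44 to 0.49; adjusted p = 0.901). For scale, own-host deficient lesions, whose recipients also lack ILC2s, averaged 0.0374 ± 0.0319 CPM of Il5 and 0.0538 ± 0.0239 CPM of Il13 (SD, n = 4). Those levels were below every one of the 8 libraries compared here.

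Receptors and identity genes of ILC2s overlapped as well. Il1rl1, the IL-33 receptor ST2, had 56.5, 81.3, 33.3 and 114 CPM in deficient fragments, against 69.7, 109, 19.9 and 27.6 CPM in Cre controls. Both groups spanned a wide and shared range, and the log2 fold change was 0.34 ± 0.42 (95% interval -0.52 to 1.19; adjusted p = 0.919). Nmur1, whose locus drives the Cre, averaged 1.43 ± 0.637 CPM in deficient fragments and 0.954 ± 0.490 CPM in Cre controls (SD, n = 4 each), with overlapping values. Klrg1, a receptor of activated ILC2s and of other lymphocytes, averaged 2.12 ± 0.664 CPM in deficient fragments and 2.63 ± 0.554 CPM in Cre controls. Gata3, the transcription factor that sets ILC2 and T helper 2 identity, averaged 7.53 ± 2.87 CPM in deficient fragments and 7.77 ± 1.22 CPM in Cre controls. Of the 20 genes on the ILC2 list, 19 were measured and 0 passed edgeR's test in either direction, beside 0.00471% of all genes tested. At an unadjusted p under 0.05 there were 2 of them (background 7% in either direction). DESeq2 likewise called 0 of them. The median log2 fold change of the list was -0.02, beside a median of -0.0028 over all genes tested. The 2 at an unadjusted p under 0.05 were Icos, a costimulatory receptor, and Calca, which encodes the neuropeptide CGRP. Icos had 12.1, 3.78, 2.75 and 1.52 CPM in deficient fragments, against 2.12, 1.58, 2.16 and 2.21 CPM in Cre controls. The highest Icos value was in deficient-fragment replicate 1, the library high in T cell genes, and without it no member of the list had an unadjusted p under 0.05.

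**Figure D1:**
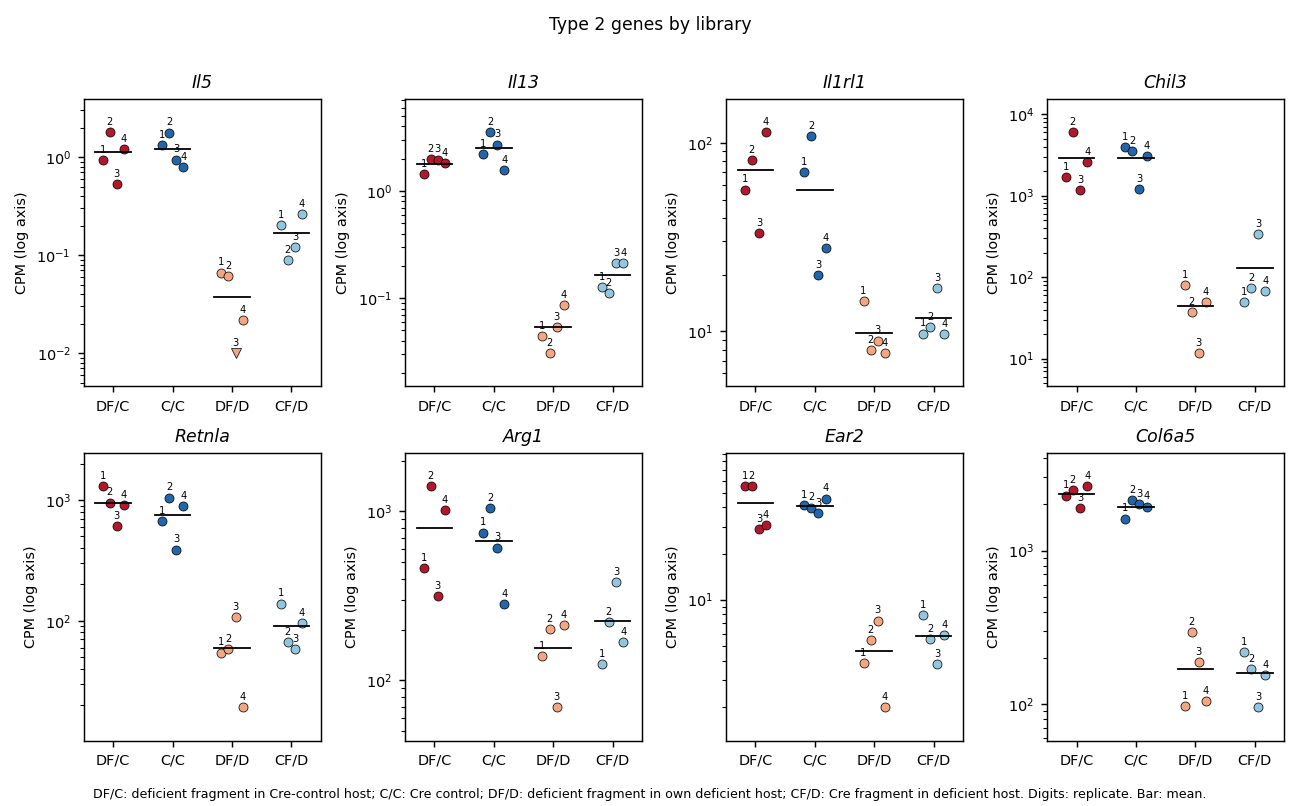
CPM (log axis) of 8 type 2 genes in each library, with the deficient fragments in Cre-control hosts left of the Cre controls, and own-host deficient lesions left of Cre fragments in deficient hosts. A triangle marks a library at 0, drawn at 0.01; in the panels for Il5 and Chil3, the 8 libraries from Cre-control hosts share 1 range and lie above the 8 from deficient hosts.

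Genes that answer IL-13 in macrophages and other myeloid cells were high in both groups. Chil3, which encodes the chitinase-like protein Ym1, had 1680, 6042, 1179 and 2570 CPM in deficient fragments, against 3946, 3549, 1198 and 3020 CPM in Cre controls. The highest and the lowest values were both in deficient fragments, and the log2 fold change was -0.03 ± 0.89 (95% interval -1.85 to 1.79; adjusted p = 0.998). Retnla, another secreted marker of this state, averaged 944 ± 285 CPM in deficient fragments and 749 ± 286 CPM in Cre controls. Arg1, which hydrolyses arginine, had 460, 1415, 315 and 1016 CPM in deficient fragments, against 749, 1048, 612 and 284 CPM in Cre controls. Arg1 varied widely within each group, and the groups overlapped. Mrc1, the mannose receptor CD206, averaged 728 ± 330 CPM in deficient fragments and 550 ± 235 CPM in Cre controls, with a log2 fold change of 0.40 ± 0.33 (adjusted p = 0.878). Own-host deficient lesions averaged 44.5 ± 28.1 CPM of Chil3 and 59.9 ± 36.5 CPM of Retnla.

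Chemokines that recruit eosinophils and T helper 2 cells overlapped too. Ccl11, eotaxin, averaged 33.3 ± 8.55 CPM in deficient fragments and 32.3 ± 9.90 CPM in Cre controls. Ccl24, another eotaxin, averaged 32.0 ± 13.5 CPM in deficient fragments and 26.5 ± 11.9 CPM in Cre controls. Ccl17, a ligand of CCR4, averaged 5.61 ± 2.91 CPM in deficient fragments and 5.25 ± 2.68 CPM in Cre controls. Ear2, an eosinophil and macrophage ribonuclease with close paralogs among which reads can be split, averaged 42.5 ± 14.7 CPM in deficient fragments and 40.9 ± 3.76 CPM in Cre controls. Of the 24 genes on the type 2 response list, 23 were measured, 16 had a positive and the rest a negative log2 fold change, and 0 passed edgeR's test or DESeq2's. At an unadjusted p under 0.05 there were also 0, beside 7% of all genes tested, and the median was 0.25. Among the smallest p values on the list, Clec10a, a lectin of type 2 macrophages and dendritic cells, had a log2 fold change of 0.72 ± 0.46 (adjusted p = 0.821), and Il4ra, the receptor chain shared by IL-4 and IL-13, of 0.41 ± 0.26 (adjusted p = 0.821).

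Siglecf, a lectin of eosinophils and of some macrophages, was the 1 of 7 measured eosinophil genes whose groups did not overlap (background 1.39% below). It had 3.52, 2.70, 3.75 and 1.98 CPM in deficient fragments, against 7.51, 4.10, 4.23 and 6.98 CPM in Cre controls. Every deficient fragment lay below every Cre control, and the log2 fold change was -0.93 ± 0.35 (95% interval -1.64 to -0.23; adjusted p = 0.602), which did not pass the test. The other 6 measured eosinophil genes overlapped between groups.

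Col6a5, a collagen VI chain, was high in both groups. It had 2285, 2493, 1905 and 2639 CPM in deficient fragments in Cre-control hosts, against 1618, 2137, 2012 and 1940 CPM in Cre controls. Replicates 1, 2 and 4 of the deficient fragments lay above every Cre control, and the log2 fold change was 0.27 ± 0.48 (95% interval -0.71 to 1.26; adjusted p = 0.942). Own-host deficient lesions averaged 170 ± 91.3 CPM and Cre fragments in deficient hosts 159 ± 50.4 CPM. Il33, the cytokine itself, averaged 48.3 ± 8.24 CPM in deficient fragments and 37.3 ± 11.3 CPM in Cre controls, with a log2 fold change of 0.38 ± 0.43 (adjusted p = 0.914).

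**Figure D2:**
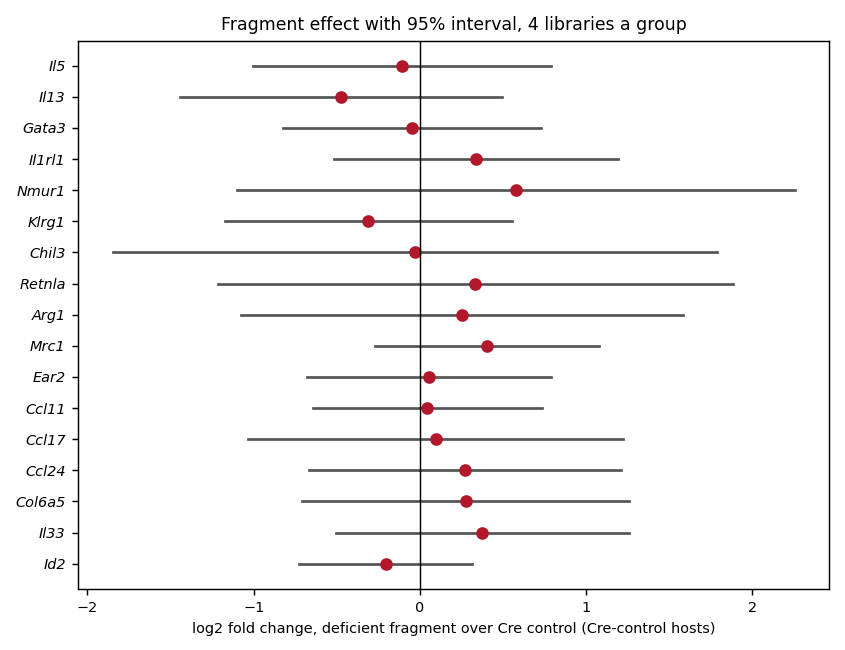
Log2 fold change (point) and 95% interval (line) of 17 panel genes, deficient fragments in Cre-control hosts over Cre controls, 4 libraries a group. Every interval includes 0, from the narrow interval of Id2 (-0.73 to 0.31) to the wide one of Chil3 (-1.85 to 1.79).

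Id2, the floxed gene, overlapped between groups in these whole lesions. It had 48.1, 39.5, 32.0 and 33.7 CPM in deficient fragments, against 42.2, 42.6, 61.8 and 30.2 CPM in Cre controls. The log2 fold change was -0.21 ± 0.26 (95% interval -0.73 to 0.31; adjusted p = 0.919). Id2 is made by many cell types and the deletion is confined to Nmur1-expressing cells, so its gene-level count does not check the labels. Id1, a related inhibitor, had a log2 fold change of -0.69 ± 0.32 (adjusted p = 0.676).

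Levels were also read for transcripts that follow the floxed genotype in lesions that were never transferred. The transcripts were chosen after their values were seen, by 1 rule that used neither group of transferred lesions. A lesion can hold cells of both fragment and host, so these levels do not verify the label of a fragment. The rule asked that 16 own-host lesions with floxed Id2 all lie above, or below, 8 lesions without it, with means at least 4-fold apart. The 16 were the own-host deficient lesions, Id2fl/fl lesions given IL-33, and Nmur1iCre-eGFPId2fl/fl lesions given PBS or labelled as given IL-33 and PBS. The 8 were the Cre controls and C57Bl/6J wild-type lesions given IL-33. Own-host lesions given ILC2s were not used. The rule found 14 transcripts higher and 23 lower with floxed Id2. Of the 14, 12 have 1 position in the GENCODE M21 annotation of GRCm38, and 6 of those lie within 20 Mb of Id2 on chromosome 12. Of the 12, 8 share more than 50% of their 31-base words with other annotated genes, where a word found in any other gene counts. The share with 1 gene alone passed 50% only for Gm2808 (92.9%), Gm6969 (78.2%), Gm48643 (53.8%) and Gm7993 (51.8%). Gm7993, on chromosome 5, and Gm9260, 90.9 Mb from Id2, resemble Odc1, which spans chr12:17544794-17551505, near Id2 at chr12:25093799-25097140.

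In deficient fragments in Cre-control hosts, these transcripts stood close to the level of the Cre controls and far from that of deficient lesions in their own hosts. The 14 transcripts together had 3.11, 4.81, 10.1 and 11.7 CPM in deficient-fragment replicates 1, 2, 3 and 4, against 2.03, 1.95, 3.26 and 2.46 CPM in Cre controls. Own-host deficient lesions had 36.2 to 49.7 CPM. On a scale where the Cre-control mean is 0% and the own-host deficient mean is 100%, deficient-fragment replicates 1 to 4 stood at 1.72%, 5.96%, 19.2% and 23.2%. Replicate 1 lay within the range of the Cre controls, whose highest library was at 2.08%, and the other 3 lay above it. The Cre controls and own-host deficient lesions were among the lesions used to choose these transcripts. The gap between them was thus set by the rule, and a position above the Cre controls is not a test. The reverse transfer mirrored this. Cre fragments in deficient hosts stood at 120%, 83.8%, 72.4% and 63.7% on the same scale. For these 14 transcripts summed, the lesions thus stood nearer to the genotype of the host in both directions of transfer, which did not hold for every lesion in the transcripts that are lower with floxed Id2, given further on. The share of fragment cells in a lesion was not measured, and no test was made of this scale.

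**Figure D3:**
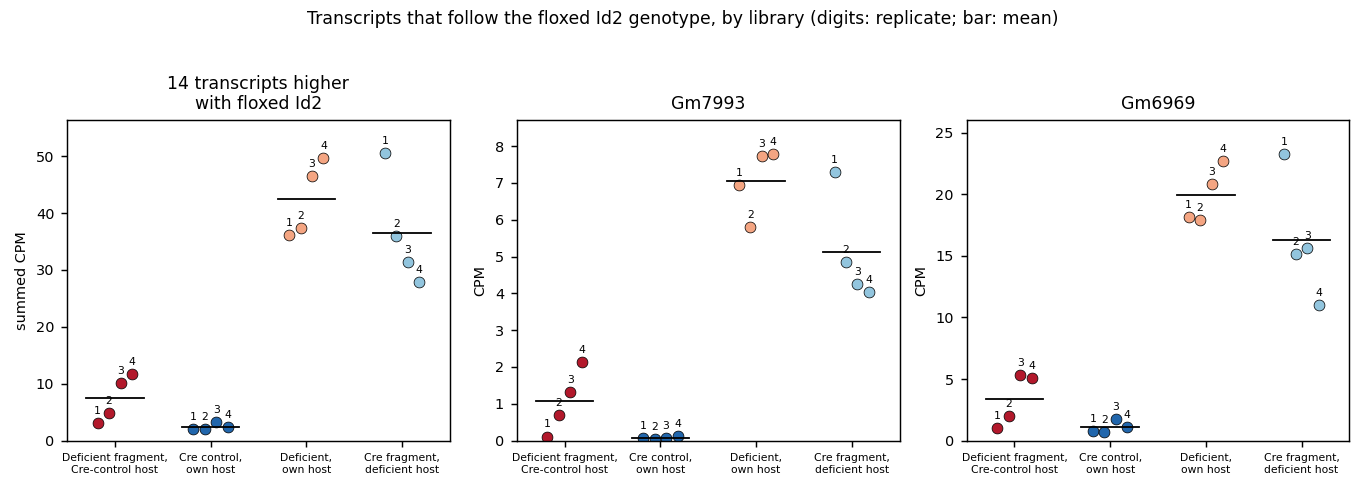
Summed CPM of the 14 transcripts higher with floxed Id2, and CPM of Gm7993 and Gm6969, in each library, with bars at the group means. Deficient fragments in Cre-control hosts reach 11.7 summed CPM, beside at most 3.26 in Cre controls, at least 36.2 in own-host deficient lesions and at least 27.9 in Cre fragments in deficient hosts.

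Gm7993, the called gene, belongs to this set. It had 0.109, 0.704, 1.33 and 2.12 CPM in deficient fragments in Cre-control hosts, from 4, 30, 52 and 88 reads. Cre controls had 0.0589, 0.0494, 0.0746 and 0.113 CPM, from 2, 2, 3 and 5 reads. Replicate 1 of the deficient fragments lay within the Cre controls, and the other 3 lay above all of them. The log2 fold change was 3.79 ± 0.53 (95% interval 2.70 to 4.87; adjusted p = 0.000927). Own-host deficient lesions had 5.79 to 7.77 CPM. The call was lost under limma voom (log2 fold change 3.11, adjusted p = 0.959), in a fit of the 8 libraries alone (3.79, adjusted p = 0.791), with a replicate block (3.55, adjusted p = 0.403), and where genes needed 1 CPM in 4 libraries, which left Gm7993 out. Odc1 averaged 60.8 ± 6.60 CPM in deficient fragments and 59.9 ± 6.37 CPM in Cre controls.

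Gm6969 had 1.01, 1.99, 5.35 and 5.07 CPM in deficient fragments, against 0.737, 0.667, 1.74 and 1.10 CPM in Cre controls. Its log2 fold change was 1.66 ± 0.32 (95% interval 1.00 to 2.31; adjusted p = 0.131), and without deficient-fragment replicate 1 it passed the test at 1.96 ± 0.27 (adjusted p = 0.000409). It also passed without deficient-fragment replicate 2 (adjusted p = 0.0315) and without Cre-control replicate 3 (adjusted p = 0.0186). Cox7a2l averaged 68.1 ± 5.62 CPM in deficient fragments and 76.9 ± 5.24 CPM in Cre controls, beside 40.97 ± 3.87 CPM in own-host deficient lesions. Gm48643, a pseudogene near Id2, had 0, 1, 14 and 17 reads in the deficient fragments and no read in any Cre control, and passed the test only without deficient-fragment replicate 1 among the edgeR settings run (adjusted p = 0.0455). Rps7-ps3, named as a pseudogene of Rps7, had 0.519, 0.845, 0.637 and 0.869 CPM in deficient fragments, all above the 0.321 to 0.448 CPM of Cre controls, with an adjusted p of 0.602. Of the 115 genes whose midpoint lies within 10 Mb of Id2, 0 passed the test, 12 (10.4%) had an unadjusted p under 0.05, beside 7% of all genes tested, and 6 lay above without overlap and 0 below, beside 1.68% above and 1.39% below over all genes tested.

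The 6 transcripts within 20 Mb of Id2 that are lower with floxed Id2 also stood near the Cre controls when summed. The rest of the 23 lower transcripts were not summed, and include type 2 genes such as Arg1, Ccl24 and Ear2. They varied on the scale above, with Esr2 at 35.1%, 103%, 78.8% and 106% in deficient-fragment replicates 1 to 4. Gm15446 stood at -20.4%, -29.5%, 3.58% and 14.7%. Together the 6 had 6.83, 6.08, 5.12 and 6.83 CPM in deficient fragments, against 7.19, 8.20, 6.96 and 5.81 CPM in Cre controls. By the median position of the 6, deficient-fragment replicates 1 to 4 stood at 17.5%, 17.9%, 37.5% and 2.59%. Own-host deficient lesions had 0.598 to 0.695 CPM. One of them, 5730507C01Rik, had 0.983, 0.939, 0.510 and 1.06 CPM in deficient fragments, against 1.36, 1.28, 0.970 and 0.946 CPM in Cre controls. Cre fragments in deficient hosts spanned 1.10 CPM in replicate 1 and 6.44 CPM in replicate 4 for the sum of the 6. On the scale from the Cre-control mean to the own-host deficient mean they stood at 93.0%, 62.5%, 28.3% and 9.46% in replicates 1 to 4. By this sum, replicates 3 and 4 stood nearer to the genotype of the fragment. By the median position of the 6 transcripts, replicate 3 stood at 55.3%, nearer to the genotype of the host, and replicate 4 at 6.91%.

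Most genes on the endometrial stroma and epithelium lists had a lower mean level in the deficient fragments, and none passed the test. Esr1, the estrogen receptor of uterine stroma and epithelium, had 49.2, 43.7, 136 and 131 CPM in deficient fragments, against 180, 183 and 143 CPM in Cre-control replicates 1, 3 and 4, with replicate 2 between them. Replicates 1 and 2 of the deficient fragments were the lowest, and all 4 lay below every Cre control. The log2 fold change of Esr1 was -0.86 ± 0.50 (95% interval -1.87 to 0.15; adjusted p = 0.801). Mme, the endometrial stromal marker CD10, had 2.54, 2.32, 8.82 and 8.26 CPM in deficient fragments, against 17.7, 16.1, 34.3 and 18.6 CPM in Cre controls. Again replicates 1 and 2 were lowest and the groups did not overlap, with a log2 fold change of -1.98 ± 0.73 (adjusted p = 0.602). Hoxa10, a homeobox gene of the uterus, had 6.53, 7.86, 18.3 and 40.2 CPM in deficient fragments, against 46.0, 37.3, 58.6 and 21.9 CPM in Cre controls. Of 18 stromal genes, 2 had a positive log2 fold change, 0 passed edgeR's test or DESeq2's, 1 had an unadjusted p under 0.05 (background 7% in either direction), and 4 lay below without overlap (background 1.39%). Summed, the stromal list overlapped between groups, at 0.237%, 0.283%, 0.251% and 0.316% of counts in deficient-fragment replicates 1 to 4, against 0.214% to 0.344% in Cre controls. The median was -0.50, and it was -0.34 without both libraries that stood apart.

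Epithelial genes followed the same order among the replicates. Krt8, an epithelial keratin, had 6.17, 5.87, 30.1 and 21.6 CPM in deficient fragments, against 22.7, 18.6, 121 and 32.0 CPM in Cre controls. All 18 measured epithelial genes had a negative log2 fold change with a median of -1.17, and 0 passed edgeR's test or DESeq2's. At an unadjusted p under 0.05 there was 1 (background 7% in either direction). Cre-control replicate 3, the library with liver transcripts, was the highest for Krt8 and for Foxa2, a gland factor that liver also makes. Without both libraries that stood apart the epithelial median was -0.42. Summed over the list, epithelial genes took 0.00614%, 0.0143%, 0.0491% and 0.0330% of counts in deficient-fragment replicates 1 to 4, against 0.0288% to 0.0740% in Cre controls. The deficient-fragment libraries lowest in epithelial genes, Esr1 and Mme, replicates 1 and 2, stood at 1.72% and 5.96% on the genotype scale, the lowest of their group, whereas the summed stromal list did not follow that order. In the reverse transfer, Cre-fragment replicate 1 stood at 120% on that scale, with 0.00233% of counts in epithelial genes and 92.6 CPM of Esr1, the lowest of its group in both. Cre-fragment replicate 3 had the most counts in epithelial genes of its group, 0.231%, against 0.0365% in replicate 4, but stood at 72.4%, farther from the Cre-control level than replicate 4 at 63.7%. Whether the amount of endometrial tissue in a lesion contributes to any difference here was not tested.

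**Figure D4:**
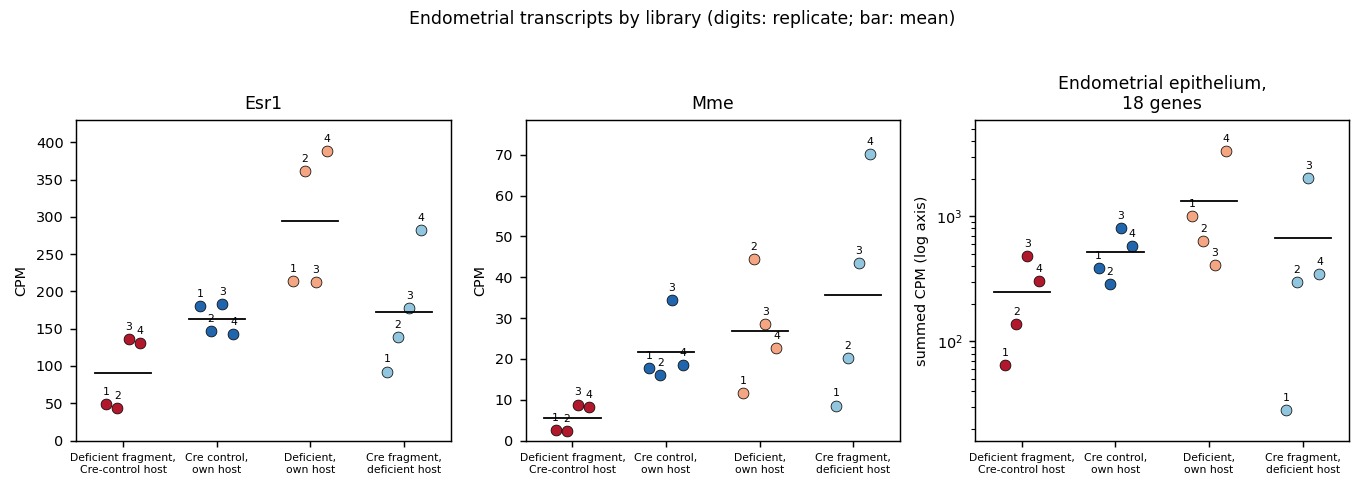
CPM of Esr1 and Mme, and summed CPM of 18 endometrial epithelial genes (log axis), in each library, with bars at the group means. Deficient-fragment replicates 1 and 2 in Cre-control hosts are lowest for Esr1 (49.2 and 43.7 CPM) and Mme (2.54 and 2.32 CPM), and all 4 deficient fragments lie below the Cre controls for both genes.

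Estrogen-response genes had a median log2 fold change of -0.79, with 13 of 14 measured genes negative and 0 called by edgeR or DESeq2. Greb1, an early estrogen target, had 2.90, 7.74, 22.1 and 13.1 CPM in deficient fragments, against 28.2, 17.8, 18.3 and 19.3 CPM in Cre controls. Lcn2, lipocalin 2, had 30.7, 25.7, 129 and 61.7 CPM in deficient fragments, against 94.2, 52.2, 1666 and 248 CPM in Cre controls, where the highest value was in the library with liver transcripts.

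Extracellular matrix genes leaned the other way. All 20 had a positive log2 fold change, beside 49.5% of all genes tested, with a median of 0.25. Of the 20, 0 passed edgeR's test or DESeq2's, or an unadjusted p under 0.05. Fbn1, which encodes fibrillin 1, had 1331, 1468, 1367 and 1686 CPM in deficient fragments, against 1154, 1196, 1076 and 1137 CPM in Cre controls. It was the 1 of 20 matrix genes whose groups did not overlap (background 1.68% above), with a log2 fold change of 0.36 ± 0.27 (adjusted p = 0.851). Mesothelial genes had a median of 0.60 over 10 genes, and Msln, mesothelin, had 19.8, 18.5, 12.4 and 19.2 CPM in deficient fragments, against 7.54, 6.84, 8.65 and 11.5 CPM in Cre controls. Msln was 1 of 2 mesothelial genes that lay higher without overlap (background 1.68% above), and its log2 fold change was 1.02 ± 0.64 (adjusted p = 0.821). Macrophage and monocyte genes had a median of 0.25 with 0 of 18 called by edgeR or DESeq2, and C1qa, a complement component of tissue macrophages, had a log2 fold change of 0.49 ± 0.27 (adjusted p = 0.788).

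T cell and cytotoxic genes had higher mean levels in the deficient fragments, most of all in replicate 1, and none passed edgeR's test. Cd8a, a chain of the CD8 co-receptor, had 6.88, 0.422, 1.40 and 0.410 CPM in deficient fragments, against 0.383, 0.124, 0.124 and 0.225 CPM in Cre controls. Every deficient fragment lay above every Cre control, and replicate 1 lay far above the rest. The log2 fold change of Cd8a was 3.41 ± 1.01 (95% interval 1.34 to 5.47; adjusted p = 0.602). Ccl5, a chemokine of T and NK cells, had 39.2, 2.37, 2.42 and 1.74 CPM in deficient fragments, against 1.21, 0.840, 0.895 and 0.788 CPM in Cre controls, again without overlap. Trat1, an adaptor of the T cell receptor, had 3.796, 0.446, 0.153 and 0.169 CPM in deficient fragments, against 0.118, 0.0494, 0.0995 and 0.113 CPM in Cre controls. DESeq2 called Trat1 higher (log2 fold change 3.58 ± 0.84, adjusted p = 0.0469), and it is not on the T cell list. Of 15 T cell genes, 14 had a positive log2 fold change, 8 had an unadjusted p under 0.05 (background 2.41% higher), 3 lay above without overlap (background 1.68%), and 0 passed edgeR's test or DESeq2's. The median was 1.35, and 0.40 without replicate 1, when 0 had an unadjusted p under 0.05.

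Some genes of T helper 1 and interferon-γ responses were highest in the same library. Tbx21, the T helper 1 factor T-bet, had 6.23, 0.469, 0.969 and 0.435 CPM in deficient fragments, against 0.265, 0.519, 0.423 and 0.315 CPM in Cre controls. Cxcl10, an interferon-induced chemokine, had 20.8, 0.399, 4.31 and 0.410 CPM in deficient fragments, against 0.619, 0.568, 1.54 and 1.49 CPM in Cre controls. Ciita, the master regulator of MHC class II, had 167, 47.9, 56.4 and 40.4 CPM in deficient fragments, against 34.7, 34.6, 31.8 and 46.4 CPM in Cre controls. Dendritic cell and MHC class II genes had a median of 0.93 over 12 genes, and 0.15 without replicate 1. NK and cytotoxic genes had a median of 0.74 over 10 genes, and -0.04 without it. The interferon response list had a median of -0.20 over 18 genes, 11 of them negative, and -0.31 without replicate 1. Summed, that list was highest in replicate 1, at 721 CPM, against 182 to 329 CPM in Cre controls. Deficient-fragment replicates 2, 3 and 4 had 189, 396 and 187 CPM. In the other 3 deficient fragments, Tbx21, Cxcl10 and Ciita overlapped the Cre controls.

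**Figure D5:**
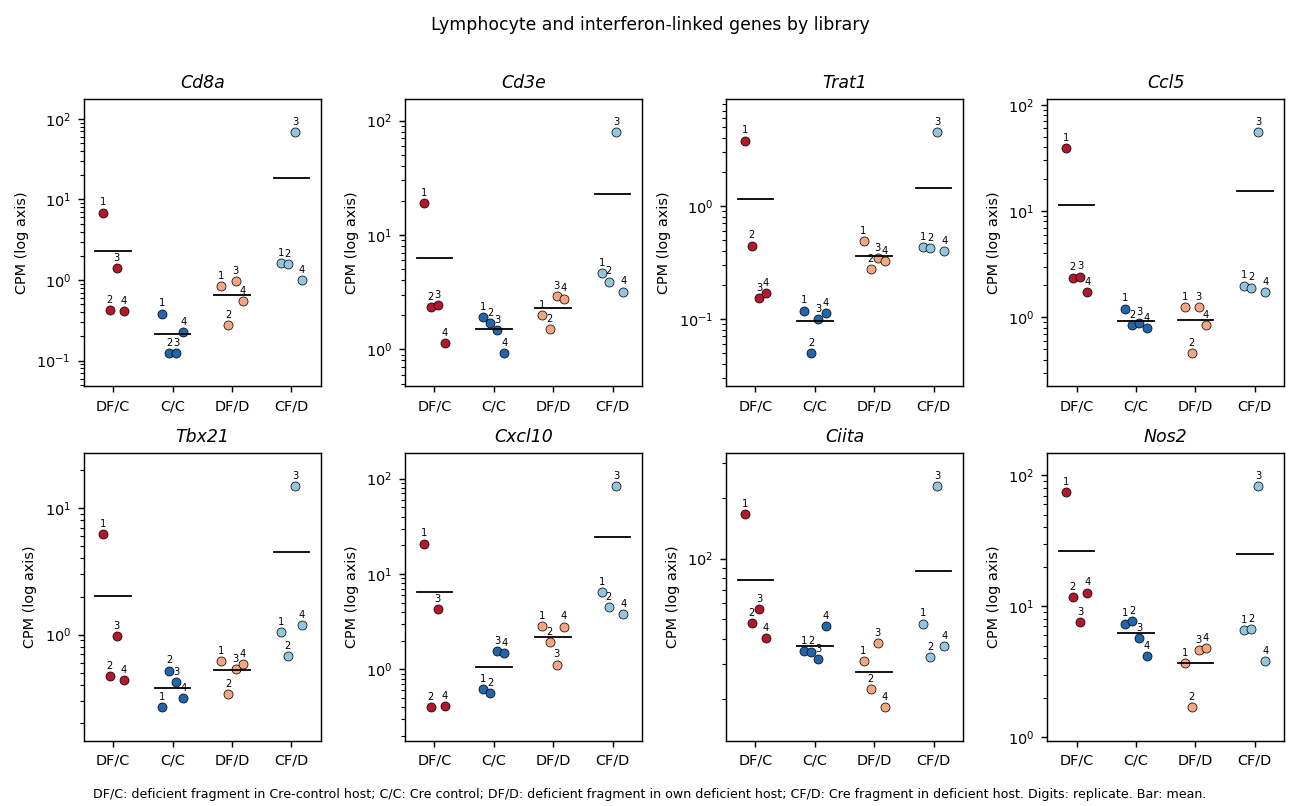
CPM (log axis) of 8 lymphocyte and interferon-linked genes in each library; bars are group means. Deficient-fragment replicate 1 is the highest of the 8 libraries from Cre-control hosts in every panel (39.2 CPM of Ccl5, 167 of Ciita), and Cre-fragment replicate 3 is the highest of the 8 from deficient hosts (55.7 and 229.6 CPM).

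Gm609 and Stkld1, which are on none of the gene lists, had smaller adjusted p values than any list member, the lowest of which was 0.602. Gm609, a predicted gene, had 0.0819, 0, 0 and 0.0483 CPM in deficient fragments, against 1.80, 1.24, 4.03 and 1.64 CPM in Cre controls. The groups lay apart, from at most 3 reads in a deficient fragment, and the fitted log2 fold change of -5.98 ± 1.40 (adjusted p = 0.556) depends on those few reads. DESeq2 called Gm609 lower (adjusted p = 0.0327), and so did edgeR without the liver-bearing libraries (-5.50 ± 0.93, adjusted p = 0.0235). Stkld1, a kinase-like gene, had 0.983, 0.821, 0.688 and 0.507 CPM in deficient fragments, against 0.265, 0.543, 0.174 and 0.293 CPM in Cre controls, with a log2 fold change of 1.22 ± 0.28 (adjusted p = 0.502), which passed the test without Cre-control replicate 2 (adjusted p = 0.0331).

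The other lists gave 0 calls by edgeR or DESeq2 in either direction. Their median log2 fold changes over all 8 libraries were 0.49 for mast cells, -0.36 for neutrophils, -0.06 for B and plasma cells, -0.03 for resident peritoneal macrophages and -0.03 for eosinophils. For tissue cells they were 0.04 for endothelium, -0.20 for smooth muscle, 0.51 for skeletal muscle, -0.996 for adipocytes, 0.43 for nerve and Schwann cells and -1.18 for blood. For responses they were -0.20 for interferon genes, 0.13 for inflammation, -0.13 for cell division, -0.14 for immediate early genes, -0.13 for clock genes and 0.06 for the amino acid stress response. They were 0.06 for mitochondrially encoded genes, -0.18 for genes that vary between strains and -0.19 for Id2 and the Cre driver with its relatives. The liver list had -13.96, and -0.77 without Cre-control replicate 3. Several of these medians rested on the libraries that stood apart. The neutrophil median was 0.20 without Cre-control replicate 3, the library with the most neutrophil counts of the 8 (0.247%), and 0.16 without both. The skeletal muscle median was 0.08 without deficient-fragment replicate 1, 0.11 without Cre-control replicate 3, -0.33 without both and 2.02 with limma voom. Without both, the median was 0.21 for resident peritoneal macrophages and 0.03 for immediate early genes, also with the sign turned, and without Cre-control replicate 3 it was 0.0064 for eosinophils, -0.04 for smooth muscle and -0.03 for cell division.

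The same fragment comparison in deficient hosts sets own-host deficient lesions over Cre fragments in deficient hosts, and shares no library with the first. It called 10 genes with edgeR, 2 higher (0.00941%) and 8 lower (0.0376%), or 0.0471% in all, and 0 of them were called in both hosts. The count rested on single libraries, above 100 without Cre-fragment replicate 1, 2 or 4 (161 and 185 without replicates 2 and 4), 16 without own-host deficient replicate 3, and 3 or 4 without any other. Il5 was low on both sides there, at 0.0374 ± 0.0319 CPM in own-host deficient lesions and 0.170 ± 0.0790 CPM in Cre fragments, with a log2 fold change of -2.10 (adjusted p = 0.134). Averaged over both hosts, 1 gene was called (0.00471%), again Gm7993.

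The fragment effect differed between the hosts for 88 genes, or 0.414%, 81 of them higher (0.381%) and 7 lower (0.0329%) in Cre-control hosts. The same contrast sets both transferred groups over both groups that were not transferred. A fragment effect that depends on the host and an effect of transfer cannot be told apart in it. Of the 81, 73 were highest in both deficient-fragment replicate 1 and Cre-fragment replicate 3, the library in the other pair that was high in T cell genes (0.0855% of its counts). Cd8a had a difference of log2 fold changes of 8.20 (adjusted p = 0.0113) and Ccl5 of 7.62 (adjusted p = 0.0108). Without deficient-fragment replicate 1 the count was 4, and without Cre-fragment replicate 3 it was also 4. It was 3 to 15 without any 1 Cre control or own-host deficient replicate 1, 2 or 4, 36 without own-host deficient replicate 3, 142 without deficient-fragment replicate 3, and 150, 227 and 264 without Cre-fragment replicate 1, 2 or 4. In limma voom it was 1. The fragment effect on 3 clock genes also differed between hosts. Dbp, a clock output gene, had 32.4, 28.3, 27.4 and 26.0 CPM in deficient fragments in Cre-control hosts, against 42.1, 54.3, 46.8 and 37.6 CPM in Cre controls, without overlap. Its log2 fold change was -0.66 ± 0.27 in Cre-control hosts (adjusted p = 0.621) and 1.23 in deficient hosts (adjusted p = 0.0707), and the difference was -1.90 (adjusted p = 0.0309). Arntl, the clock activator BMAL1, had the opposite sign, with a difference of 0.97 (adjusted p = 0.0437). Per3, a clock repressor, had a difference of -1.33 (adjusted p = 0.029). The time of day of sampling is not given in the labels, and its part was not tested.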

How the data were processed

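Gene counts are as the authors deposited them, whole-number raw counts per gene for 41 libraries. Trimmomatic, STAR, HTSeq, edgeR and limma and the build GRCm38 are named, without versions, in the submitters' processing notes; their settings and strand handling are not given in the sources used here. Counts were scaled with TMM and fitted with edgeR 4.0.16 (R 4.3.3; limma 3.58.1; DESeq2 1.42.0) as 1 quasi-likelihood model of 11 group means, over all 21249 genes, the lowest with 411 reads in total. Contrasts were tested at a Benjamini-Hochberg adjusted p under 0.05, after a check on simulated counts. The 4 libraries a group, 31.8 to 44.1 M counts a library and the spread estimated over all 41 libraries set the precision. The members, the 32 gene lists and the tests were chosen with earlier results of these data known. Named genes were a panel of 17, the 12 smallest p values, the 4 smallest p values of each list, called genes near Id2 or between hosts, and genotype-tracking transcripts with Odc1 and Cox7a2l, added after seeing the values. Positions are from GENCODE M21 (GRCm38), which gave 1 position for 20769 symbols. Replicates differed far beyond counting noise, so none was merged.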

Additional observations from a re-analysis of the deposited data

Results flagged for a closer look

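Some values in a group of 4 lay farther from the other 3 than Dixon's 95% limit of 0.829 allows, a limit that chance passes in about 1 of 20 groups. In deficient-fragment replicate 1 these were Trat1 at 3.796 CPM, Apol7c at 18.6, Ccl5 at 39.2, Cd8a at 6.88, Cd4 at 17.4, Cd3e at 19.0, Ciita at 167, Tbx21 at 6.23 and Nos2 at 74.5 CPM. The summed T cell list stood at 196.9 CPM there, the NK and cytotoxic list at 81.0 CPM, and the dendritic cell and MHC class II list at 5139 CPM. In deficient-fragment replicate 2, the macrophage and monocyte list stood at 8275 CPM.

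In Cre-control replicate 3 the values that stood apart were Foxa2 at 12.0 CPM, Mme at 34.3, Lcn2 at 1666, Krt8 at 121 and Krt18 at 117 CPM. Its summed lists that stood apart were liver at 77548 CPM, estrogen response at 25918, blood at 3109, resident peritoneal macrophages at 1291, nerve and Schwann cells at 82.5 and NK and cytotoxic genes at 6.79 CPM. In Cre-control replicate 4 they were Gbp5 at 7.66 CPM, the macrophage and monocyte list at 6356 CPM and the T cell list at 31.04 CPM. Greb1 at 28.2 CPM in Cre-control replicate 1 and Icos at 1.58 CPM in Cre-control replicate 2 also stood apart.

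The fragment effect differed between hosts, by edgeR's test of the difference itself, for these named genes. This contrast also sets transferred lesions over lesions not transferred, and these readings cannot be told apart. The differences of log2 fold changes, Cre-control hosts minus deficient hosts, were 8.20 for Cd8a, 7.62 for Ccl5, 6.11 for Cxcl10, 6.05 for Apol7c, 5.54 for Trat1, 5.49 for Tbx21 and 5.36 for Cd3e. They were 4.85 for Nos2, 4.68 for Gbp5, 2.74 for Ciita and 1.98 for Flt3. Outside the lymphocyte and interferon-linked genes they were 3.32 for Gm7993, 2.10 for Stkld1, -9.82 for Gm609, 0.97 for Arntl, -1.33 for Per3 and -1.90 for Dbp.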

How the results depend on the processing

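The count of genes called in Cre-control hosts, 1 in the fit reported, was 11 with DESeq2, 0 with limma voom, 0 with a minimum of 1 CPM in 4 libraries, 0 in a fit of only the libraries compared, 3 without the liver-bearing libraries and 2 without both libraries that stood apart (chosen after seeing the data), and ranged from 1 to 3 as each library was left out. In deficient hosts the 10 became 243 with DESeq2, 1 with limma voom, 3 with the minimum, 0 in only the libraries compared and 2 without the liver-bearing libraries, and 3 to 185 as each library was left out. The 88 between hosts became 342, 1, 74, 0 and 1 in the same order, and 3 to 264; the 1 averaged over hosts became 13, 0, 1, 0 and 0, and 0 to 7. The cause was not tested. The labels do not say that replicate numbers pair the libraries. The correlations of same-numbered deviations were -0.0286, 0.0101, -0.0776 and -0.300 in Cre-control hosts. In deficient hosts they were 0.271, 0.305, -0.188 and -0.179. These few values cannot decide whether the libraries are paired. With a replicate block the counts were 4, 0, 0 and 0. The 4 were Afm, Pon1, Ugt3a2 and Uroc1, all lower in deficient fragments, with log2 fold changes from -12.24 to -9.53. Whether the liver transcripts of Cre-control replicate 3 account for them was not tested.

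Of 1013 recomputed values for 64 named genes, 960 kept direction and side of the threshold. The sign changed for Retnla without both libraries (-0.0783), for Ear2 with limma voom (-0.0094), the replicate block (-0.00222) and without both libraries (-0.15), and for Ccl11 without the liver-bearing libraries (-0.12) and without both (-0.23). It changed for Ccl17 with the replicate block (-0.0040), without the liver-bearing libraries (-0.0932) and without both (-0.0789), and for Foxa2 without both (0.20). As each library was left out, the log2 fold change spanned -0.44 to 0.14 for Il5, -0.70 to 0.23 for Chil3, -0.32 to 0.13 for Gata3, -0.10 to 0.20 for Ear2, -0.12 to 0.21 for Ccl11, -0.12 to 0.41 for Ccl17, -0.17 to 0.55 for Arg1 and -0.0203 to 0.0971 for Odc1. None of these was called in any setting run. Few reads limit the pseudogenes.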
